A study of Homo sapiens with 9 samples.

Results

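Single HAP1 cells were set against samples of 10 HAP1 cells, the smallest step in cell number of the series. The members were chosen by their labels: 3 libraries made from 1 sorted cell each (Single Cell Rep 1, Rep 2 and Rep 3) and 2 libraries made from 10 sorted cells (10 Cell Rep 1 and Rep 2), which is 5 of the 9 libraries in all. The study asked whether total RNA taken up on magnetic beads from so few cells can be sequenced, and its other libraries, from 100 and 1000 cells, entered no test here. HAP1 is an adherent, near-haploid human line derived from KBM-7, a line of chronic myeloid leukemia. All 5 samples carried the genotype label WT, had the same medium and no treatment, were sorted by FACS into NAxtra lysis buffer, were DNase-treated, and were made into libraries with the SMART-Seq Stranded kit. The replicates are called biological, but nothing says that they came from separate cultures, so each p-value below measures only the spread between these samples.

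A cell transcribes many of its genes in bursts, so that the RNA of a gene can be abundant in 1 cell and scarce in its neighbour, while a pool of cells holds an average over bursts and over stages of the cell cycle. A gene with few RNA molecules can also be missed in a cell because a molecule was lost before it was copied. The kit primes cDNA at random positions, so RNAs without a poly(A) tail, such as those of the replication-dependent histones and the small nucleolar RNAs, are copied along with ordinary mRNA. It carries no molecular identifiers, so read counts are not counts of molecules, and a floor set from counts covers counting error only. The 95% intervals of fold changes come from the fit and carry the spread between libraries. For each gene the fit assumes the same spread in both groups. The cells in fact varied more, 2.72 to 2.97 times as widely pair for pair at 10 CPM or more. The p-values and intervals all rest on that assumption.

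The single cells were sequenced as deeply as the 10-cell samples, with 51137806, 51581544 and 53491792 reads counted on genes against 43174040 and 49148341. Levels are given as CPM, the counts of a gene scaled to the total of its library. Single Cell Rep 3 stood somewhat apart, with a Pearson r of log2 CPM of 0.87 with each 10-cell sample against 0.91 for the other cells, and values are given for each cell so that its part can be seen. HAP1 identity was checked on 8 genes, each with counts in both groups, which summed to 3920 to 4800 CPM in the cells and 4270 to 4660 CPM in the 10-cell samples. Most of that sum was PEG10, an imprinted gene of retrotransposon origin, with 3880, 3370 and 3630 CPM in the cells against 3350 and 3880 CPM. The 7 identity genes tested at 10 CPM or more had a median log2 fold change, cells over 10 cells, of -0.28, with 2 above 0 and 5 below, none at an unadjusted p under 0.05, and their median in Single Cell Rep 2 was -0.75. Among markers of other cells, 12 of 22 blood genes, 5 of 14 fibroblast genes, 8 of 12 plasma cell genes and 10 of 18 keratinocyte genes had 0 counts in all 5 libraries, including PTPRC, CD34, HBB, COL1A2, DCN, KRT5, KRT14 and CD38. The blood list summed to 63.2 to 85.1 CPM in the cells and 63.7 to 68.2 CPM in the 10-cell samples, and the fibroblast list, which holds the widely expressed VIM and FN1, to 655 to 847 and 799 to 829 CPM. The plasma cell list summed to 145 to 205 and 200 to 207 CPM. Members of these lists with counts in every library included GATA2 of the blood list, with 63.3, 51.3 and 78.1 CPM in the cells against 55.8 and 58.4 CPM. COL1A1 of the fibroblast list had 7.57, 3.75 and 15.2 CPM against 8.51 and 10.5 CPM. In the plasma cell list XBP1 had 143, 101 and 156 CPM against 155 and 145 CPM, and SDC1 had 61.7, 43 and 42.3 CPM against 52.3 and 54.4 CPM. The keratinocyte list summed to 204 to 326 CPM in the cells, below both 10-cell samples at 370 and 378 CPM. Nearly all of that sum was 1 gene, DSP, with 315, 325 and 202 CPM in the cells against 371 and 361 CPM.

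Fewer genes were detected in 1 cell than in 10. With a gene detected at 1 count or more, the cells held 14478, 14290 and 13968 genes (mean 14245.3 ± 257.9, SD, n = 3) and the 10-cell samples 16283 and 16552 (mean 16417.5 ± 190.2, SD, n = 2). Every cell lay below both 10-cell samples, and the difference of the means was -2172 genes (exact two-sided permutation test, p = 0.1, the smallest p that 3 against 2 libraries allow). The deficit lay among weak genes, since genes at 10 CPM or more numbered 9812, 9743 and 9666 in the cells and 9761 and 9748 in the 10-cell samples.

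Detection followed the level of a gene closely. Among genes with a 10-cell mean of 0.3 to 1 CPM, 14.9% of 1555 had counts in all 3 cells. That share was 46.6% of 1500 genes at 1 to 3 CPM and 89% of 2121 genes at 3 to 10 CPM. It reached 99.7% at 10 to 30 CPM, where 3339 of 3348 genes were seen in every cell, and all 6450 genes above 30 CPM were. In the other direction, 519 genes at 0 in both 10-cell samples had counts in at least 1 cell, and 464 of them in only 1 of the 3 cells. In a 10-cell sample, a gene carried by few of the cells and a gene at a low level in all of them cannot be told apart.

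**Figure D1:**
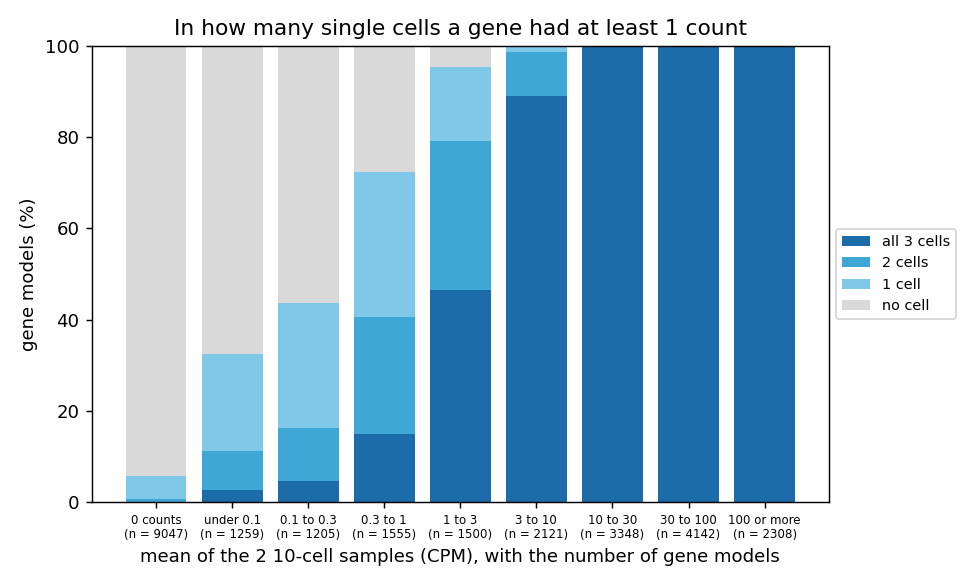
Share of gene models (vertical axis, percent) with counts in all 3, 2, 1 or none of the single cells (dark blue to grey), by mean level in the 10-cell samples (horizontal axis, CPM). The share seen in all 3 cells was 14.9% at 0.3 to 1 CPM, 89% at 3 to 10 CPM and 99.7% at 10 to 30 CPM.

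The 9 genes that averaged over 10 CPM in the 10-cell samples yet had 0 counts in a cell were named for that, after their values were seen. PI15, a secreted peptidase inhibitor, had 0, 0 and 0.0761 CPM in the cells but 5.24 and 23.6 CPM in the 10-cell samples, so it was almost missing from all 3 cells. TTN, the gene of the giant muscle protein titin, had 0, 18.9 and 5.04 CPM in the cells and 14 and 14.2 CPM in the 10-cell samples. SNCAIP, whose protein binds alpha-synuclein, had 5.92, 0 and 2.81 CPM against 6.99 and 14.6 CPM. The other 6, EFNB3, SNX10, FPGT, CDKN2B-AS1, SH3YL1 and NUAK2, were each at 0 in Single Cell Rep 3 alone and had 1.56 to 25.6 CPM in the other cells. The reverse case was CGB1, a gene of the chorionic gonadotropin beta cluster whose near-identical copies make its counts uncertain, with 0.116, 12.9 and 0 CPM in the cells and 0 in both 10-cell samples.

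No gene passed the test between 1 and 10 cells. Of 15098 genes tested with edgeR's quasi-likelihood test, 0 (0%) had a Benjamini-Hochberg adjusted p under 0.05, and every adjusted p was 1. At an unadjusted p under 0.05 there were 634 genes (4.2%). DESeq2 called 4 genes, limma-trend 0, and a fit on replicate numbers 5. Values and intervals are therefore given in place of calls, and a p that misses the threshold does not show that the groups were alike.

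At a mean of 10 CPM or more over the 5 libraries, 9905 genes were tested. Their median log2 fold change, single cells over 10 cells, was 0.03, with 5377 genes above 0 and 4528 below. At an unadjusted p under 0.05, 153 (1.54%) were higher in the cells and 118 (1.19%) lower. Every cell lay above both 10-cell samples for 975 genes (9.84%), and below both for 1005 (10.1%). The 95% interval of the fold change lay within 2-fold for 4611 genes (46.6%), and all 5 libraries lay within 2-fold of each other for 5770 (58.3%).

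The precision rose with the level. At 10 to 30 CPM only 2.95% of genes had an interval inside 2-fold, against 54.3% at 30 to 100 CPM, 94.2% at 100 to 300 CPM and 98.9% at 300 to 1000 CPM. All 62 genes at 1000 CPM or more had one. The median width to each side of the interval, in log2 units, was 1.28 at 10 to 30 CPM, 0.73 at 30 to 100 CPM and 0.45 at 100 to 300 CPM.

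**Figure D2:**
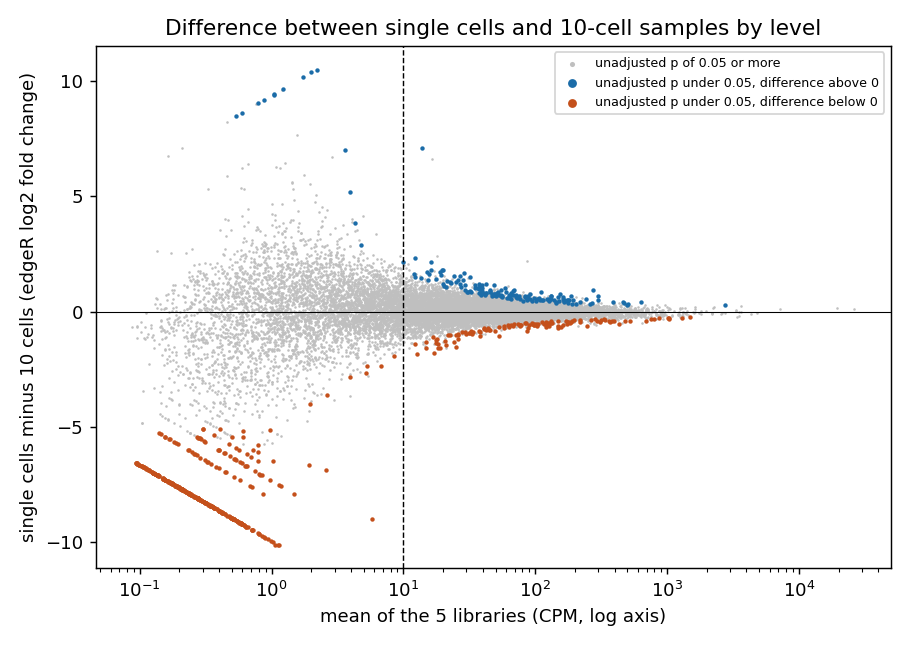
Log2 fold change of each tested gene, single cells over 10 cells (vertical axis), against its mean level over the 5 libraries (horizontal axis, CPM, log axis). The cloud is centred near 0 at 10 CPM or more, where the median is 0.03, and narrows as the level rises.

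Single cells differed from each other more than the 10-cell samples did. At 10 CPM or more the median SD of log2 CPM was 0.40 over the 3 cells and 0.305 to 0.333 over the 3 pairs of cells, against 0.11 for the pair of 10-cell samples. Pair for pair, the spread of the cells was 2.72 to 2.97 times as wide. The ratio was alike from 10 to 1000 CPM, at 2.79 to 3.05 for genes at 10 to 30 CPM and 2.7 to 2.97 at 300 to 1000 CPM, and was 1.53 to 2.3 at 1000 CPM or more. Across 9905 genes, which are not independent replicates, Pearson's r of log2 CPM was 0.80 to 0.84 between cells and 0.98 between the 10-cell samples.

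**Figure D3:**
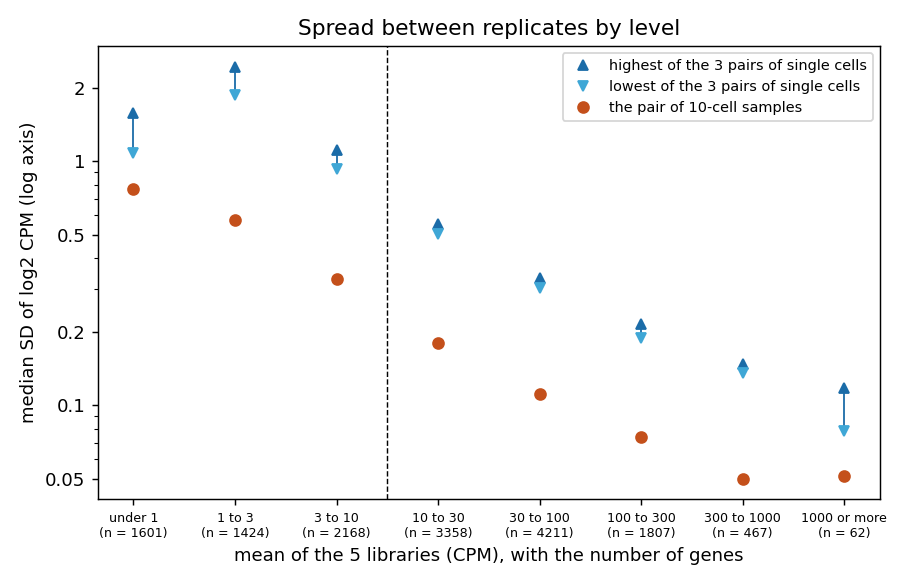
Median SD of log2 CPM between 2 libraries (vertical axis, log axis) by mean level over the 5 libraries (horizontal axis, CPM). Up and down triangles are the widest and the narrowest of the 3 pairs of single cells and circles are the pair of 10-cell samples, which lies below both triangles at every level plotted.

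The spread fell unevenly over genes. Of 6450 genes with a 10-cell mean of 30 CPM or more, 1403 (21.8%) had a range over 2-fold among the 3 cells, 130 (2.02%) over 4-fold and 15 over 10-fold. Between the 10-cell samples only 2 genes (0.031%) differed by over 2-fold and 0 by over 4-fold. A range over 3 libraries is wider than one over 2, but single pairs of cells also had 551 to 740 genes (8.54% to 11.5%) over 2-fold.

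Of the genes with a 10-cell mean of 30 CPM or more, the 10 of widest range among the cells were chosen after their values were seen, and are given as a description. SLC12A3, a sodium-chloride cotransporter (chr16:56865207-56915850, hg38), had 45, 0.137 and 138 CPM in the cells and 24.7 and 36.8 CPM in the 10-cell samples. MAP2, a microtubule-associated protein of neurons (chr2:209424047-209734110), had 7.38, 28 and 0.0951 CPM in the cells and 42.1 and 28.3 CPM in the 10-cell samples. Each was near 0 in a different cell, while its 10-cell samples were within 2-fold of each other.

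KLF4, a transcription factor of pluripotent and epithelial cells, had 87.4, 6.52 and 142 CPM in the cells against 40.9 and 48.1 CPM. The zinc finger genes ZNF208 (105, 15.9 and 282 against 83.9 and 90.8 CPM) and ZNF676 (81.8, 5.87 and 93.9 against 54.7 and 39.8 CPM) were likewise lowest in Single Cell Rep 2. So were RPP25, a subunit of RNase P and RNase MRP, at 58.1, 5.11 and 64.8 against 28.5 and 32.3 CPM, and TMEM185B at 56, 1.68 and 35.7 against 26.7 and 34 CPM. In Single Cell Rep 3 the low genes were SCN9A, a voltage-gated sodium channel (51.2, 37.3 and 1.58 against 47.1 and 68.9 CPM), the kinase RPS6KA2 (52.9, 45.2 and 2.38 against 32 and 33.8 CPM) and ZBTB39 (108, 44.9 and 6.73 against 55.6 and 50.8 CPM).

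The genes named for the comparison at 10 CPM or more are those of smallest unadjusted p with every cell beyond both 10-cell samples, 10 in each direction, none past the adjusted test. DMD, the dystrophin gene that links the cytoskeleton to the membrane (chrX:31119228-33339609), had 41.5, 32.7 and 56.7 CPM in the cells and 13.4 and 17 CPM in the 10-cell samples. All 3 cells lay above both, and the log2 fold change was 1.52 (95% interval 0.615 to 2.42, unadjusted p = 0.00469, adjusted p = 1 in edgeR's quasi-likelihood test). TET2, an enzyme that oxidises methylated cytosine in DNA (chr4:105145875-105279803), had 154, 171 and 232 CPM against 104 and 115 CPM, a log2 fold change of 0.76. MGMT, which removes alkyl groups from guanine in DNA (chr10:129467190-129767519), had 20.9, 11.2 and 21.7 CPM against 3.56 and 3.55 CPM. Its log2 fold change, 2.33, was the widest of these 10.

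Among the rest, 3 were zinc finger genes on chromosome 19. ZNF714 had 28.7, 13.9 and 27.8 CPM against 4.48 and 5.95 CPM, ZNF506 had 47.9, 40.6 and 65.2 CPM against 23.9 and 21.1 CPM, and ZNF266 had 72.4, 66 and 83.5 CPM against 39.7 and 40.9 CPM. EPHA4, an ephrin receptor kinase, had 129, 110 and 167 CPM against 74.9 and 76.3 CPM. RAPH1, which carries actin-extending proteins to the leading edge of the cell, had 147, 181 and 138 CPM against 103 and 93.2 CPM. RALGAPA1, a subunit of the complex that switches off Ral GTPases, had 57.1, 74.5 and 72.5 CPM against 37.2 and 34.4 CPM, and PLEKHM3 had 44.5, 54.4 and 45.7 CPM against 24.2 and 20.3 CPM. The log2 fold changes of these 7 ran from 0.66 for RAPH1 to 2.17 for ZNF714.

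On the lower side the genes were named by the same rule. ARCN1, a subunit of the COPI coat of transport vesicles (chr11:118572387-118603032), had 205, 216 and 198 CPM in the cells and 301 and 326 CPM in the 10-cell samples. All 3 cells lay below both, with a log2 fold change of -0.61 (95% interval -0.92 to -0.29, unadjusted p = 0.00219, adjusted p = 1 in edgeR's quasi-likelihood test). COL5A2, a chain of type V collagen (chr2:189031915-189179879), had 12.9, 17.2 and 12.8 CPM against 39.2 and 44.1 CPM (log2 fold change -1.55, 95% interval -2.41 to -0.69). NASP, a chaperone that carries histones, had 621, 627 and 587 CPM against 781 and 834 CPM, a log2 fold change of -0.40.

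VDAC1, the main channel of the mitochondrial outer membrane, had 129, 143 and 107 CPM against 189 and 217 CPM. PAIP1, which binds the poly(A)-binding protein and promotes translation, had 104, 107 and 86.8 CPM against 147 and 163 CPM. SAFB2, a nuclear scaffold factor, had 156, 138 and 144 CPM against 207 and 219 CPM. Their log2 fold changes were -0.68, -0.64 and -0.55 in that order.

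CD3EAP, which codes for a subunit of RNA polymerase I, had 68.1, 57.6 and 75 CPM in the cells and 118 CPM in each 10-cell sample. PDGFC, a platelet-derived growth factor, had 43.1, 38 and 29.1 CPM against 76.4 and 77.6 CPM. LIMCH1, which acts on non-muscle myosin, had 101, 123 and 135 CPM against 196 and 194 CPM, and FAM155B had 9.79, 13.6 and 8.31 CPM against 30.9 and 32 CPM. The log2 fold changes of these 4 were -0.82, -1.07, -0.70 and -1.58 in that order.

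**Figure D4:**
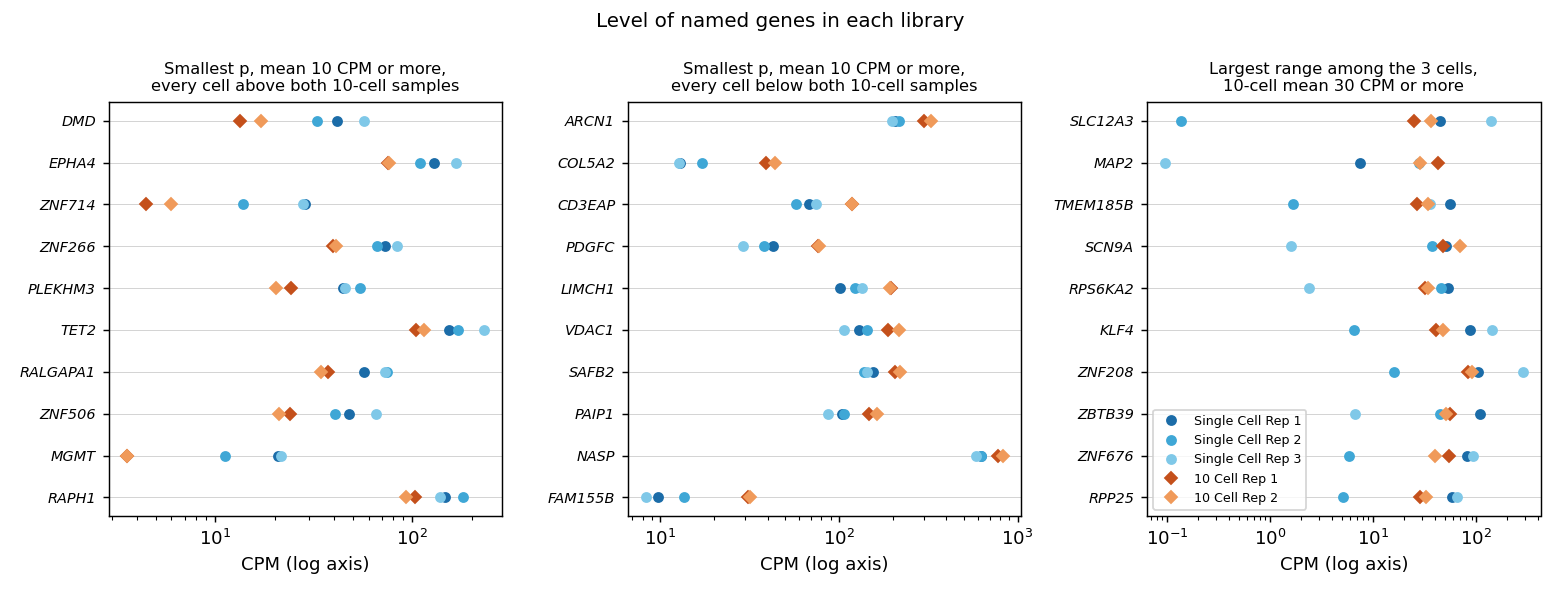
Level of each named gene in each library (horizontal axis, CPM, log axis), with single cells as blue circles and 10-cell samples as orange diamonds. The left and middle panels hold the genes of smallest unadjusted p in each direction, where the groups do not overlap by the choice of genes, and the right panel the genes of widest range among cells, such as SLC12A3 at 45, 0.137 and 138 CPM.

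Other tools called a few more genes at this level, and in each the cells were uneven. TKTL1, a transketolase-like gene called higher by DESeq2 alone, had 51.7, 0.0195 and 17.2 CPM in the cells and 0.184 and 0.142 CPM in the 10-cell samples, so Single Cell Rep 2 lay below both 10-cell samples. The fit on replicate numbers, which rests on Rep 1 and Rep 2 of each group, called 4 genes lower. LIN28A, an RNA-binding protein of embryonic cells (chr1:26410778-26429728), had 0.0385, 0.215 and 44.9 CPM in the cells against 38 and 21.7 CPM. TOP2A, the topoisomerase of mitotic chromosomes, had 414, 459 and 1020 CPM against 808 and 694 CPM. EGR1, an immediate early transcription factor, had 29.9, 54.4 and 142 CPM against 96 and 113 CPM, and UACA had 156, 228 and 346 CPM against 334 and 383 CPM. In LIN28A, TOP2A and EGR1 the third cell lay above both 10-cell samples, and in UACA between them.

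The 10 RNAs of highest level had log2 fold changes from -0.225 for NCL to 0.25 for RPPH1. Every cell lay above both 10-cell samples for RN7SK and below both for ACTB, HSP90AB1 and NCL. Over all genes at 10 CPM or more those shares were 9.84% and 10.1%. RN7SL1, which forms the core of the signal recognition particle, had 24900, 27200 and 29200 CPM in the cells and 24800 and 25700 CPM in the 10-cell samples. MALAT1, a nuclear long noncoding RNA, had 14000, 20800 and 26400 CPM against 18100 and 17800 CPM, so its cells spanned both sides of the 10-cell samples. ACTB, the cytoplasmic actin and an RT-qPCR target of the study, had 4500, 4780 and 4980 CPM against 4990 and 5010 CPM, a log2 fold change of -0.07 (95% interval -0.28 to 0.13). Among the other RT-qPCR targets, the transcription factor TBX5 had 43.6, 55.6 and 58.5 CPM against 51.2 and 52.5 CPM, with an interval of -0.59 to 0.63. TBP, the TATA-box binding protein, had 44.4, 21.7 and 41.9 CPM against 43.3 and 47.4 CPM. MYC had 709, 760 and 1390 CPM against 977 and 815 CPM.

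The genes of the leukemic fusion of this line showed the same unevenness at a low level. BCR had 23.8, 21.8 and 4.53 CPM in the cells and 25.9 and 24 CPM in the 10-cell samples. ABL1 had 20.3, 5.72 and 9.16 CPM in the cells against 13.8 and 13.4 CPM.

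Gene lists are described at 10 CPM or more by their counts and medians, beside the median of 0.03 over all 9905 genes, and no list was tested. That median fell with level, from 0.09 at 10 to 30 CPM to -0.03 at 300 to 1000 CPM, and the lists differ in level. The median level of members was 19.6 CPM for antisense and intergenic RNAs, 30.3 for zinc finger genes and 38.3 for short structured RNAs. It was 207 CPM for the histones and 413 CPM for splicing factors. The 42 replication-dependent histone genes tested at this level had a median log2 fold change of 0.34, with 40 above 0 and 2 below. These genes code for the core and linker histones made in S phase, and their RNAs end in a stem-loop in place of a poly(A) tail. Every cell lay above both 10-cell samples for 13 and below both for 1, and 7 had an unadjusted p under 0.05, all higher in the cells and none past the adjusted test. Over all genes at this level those shares were 9.84% above, 10.1% below and, at an unadjusted p under 0.05, 1.54% higher. The 7 histone genes tested below 10 CPM had a median of -0.23. Copies of identical sequence are uncertain here, because reads that matched several places were left out, and 11 of 67 listed genes had 0 counts in all 5 libraries.

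The histones did not stand alike in the 3 cells. Their median difference from the 10-cell mean was -0.07 in Single Cell Rep 1, 0.45 in Rep 2 and 0.40 in Rep 3. The 7 genes at an unadjusted p under 0.05 are a choice by p, and in each of them the first cell too lay above both 10-cell samples. HIST1H4B, a histone H4 gene, had 213, 306 and 315 CPM in the cells and 191 and 187 CPM in the 10-cell samples, a log2 fold change of 0.555. HIST1H3G, a histone H3 gene, had 610, 701 and 790 CPM against 549 and 505 CPM, a log2 fold change of 0.41. HIST1H2BG, a histone H2B gene, had 163, 207 and 221 CPM against 133 and 142 CPM, and HIST1H2AC, a histone H2A gene, had 157, 221 and 231 CPM against 144 and 139 CPM. In all 4 the first cell was the lowest of the cells.

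The stem-loops of these 4 genes are shown because that ending sets the histone RNAs apart from the other mRNAs counted. Capitals mark the 6 paired bases on each side and lower case the loop of 4, from GENCODE release 29 on GRCh38. The pattern searched was a stem of 6 bases that opens with GG, a loop of 4 that opens with TT, and the matching stem, on the transcript strand. It was found in 29 of the 67 listed histone genes and in 0.223% of the protein-coding transcripts of other genes. In HIST1H2AH, HIST1H2BK and HIST2H3D, also at an unadjusted p under 0.05, it was not found. Only annotated protein-coding transcripts were searched, so a miss does not show that an RNA lacks the stem-loop. Whether the stem-loop goes with the difference was not tested.
HIST1H2AC, chr6:26124669-26124684, plus strand: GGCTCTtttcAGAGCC
HIST1H2BG, chr6:26216218-26216233, minus strand: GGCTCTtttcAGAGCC
HIST1H3G, chr6:26270923-26270938, minus strand: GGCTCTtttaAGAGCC
HIST1H4B, chr6:26026901-26026916, minus strand: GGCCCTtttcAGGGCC

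The other 3 histone genes of unadjusted p under 0.05 were HIST1H2AH with 271, 324 and 431 CPM against 230 and 247 CPM, HIST1H2BK with 418, 537 and 574 CPM against 389 and 381 CPM, and HIST2H3D with 39.6, 73 and 75.2 CPM against 22.3 and 32.8 CPM. The strongest of the list, the linker histone HIST1H1E, had 1350, 1850 and 2010 CPM in the cells against 1460 and 1550 CPM, with the first cell below both 10-cell samples. On the lower side, HIST1H3H had 30.6, 52.4 and 20.6 CPM against 53.1 and 53.3 CPM. Without Single Cell Rep 1 the list's median was 0.51 with 23 genes at an unadjusted p under 0.05. Without Rep 2 it was 0.17 with 4 such genes, without Rep 3 0.18 with 3, and without a 10-cell library 0.28 to 0.37 with 1 or 2.

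Short structured RNAs, among them the RNAs of the signal recognition particle, of RNase P and MRP and of the nucleolus and Cajal bodies, had a median of 0.44 over 37 genes, 36 of them above 0. Every cell lay above both 10-cell samples for 9, and below both for 0, where all genes had 9.84% and 10.1%. The 21 members tested below 10 CPM had a median of -0.24. For 2 of them every cell lay above both 10-cell samples and for 2 below both, where all genes in that range had 4.22% and 19.6%. RMRP, the RNA of RNase MRP, had 2760, 2800 and 3330 CPM in the cells and 2490 and 2310 CPM in the 10-cell samples (log2 fold change 0.30, unadjusted p = 0.0325, adjusted p = 1 in edgeR's quasi-likelihood test). SNORA73A, a small nucleolar RNA, had 170, 216 and 267 CPM against 164 and 142 CPM, a log2 fold change of 0.51. RN7SK, which holds back the elongation factor P-TEFb, had 7760, 7250 and 7460 CPM against 7120 and 6520 CPM.

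These RNAs also differed within the groups. Their medians were 0.14, 0.30 and 0.74 in the 3 cells, and the second 10-cell sample lay 0.25 below the first, so that the list's median ran from 0.23 to 0.59 as single libraries were left out. By gene class, known from RefSeq for 9260 of the 9905 genes (93.5%), 38 of 42 small nucleolar RNAs (median 0.38) and 10 of 10 small nuclear RNAs (median 0.46) were above 0. The median was 0.03 for 8956 protein-coding genes and 0.18 for 119 long noncoding RNAs. The 15 host genes of small nucleolar RNAs tested at 10 CPM or more had a median of -0.06, with 5 above 0, and the 5 tested below it had a median of 0.56.

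Zinc finger genes, most of which code for DNA-binding repressors, had a median of 0.225 over 344 genes at 10 CPM or more, with 247 above 0 and 97 below. At an unadjusted p under 0.05 there were 10 higher and 1 lower, and every cell lay beyond both 10-cell samples for 42 above and 12 below. Over all genes at this level the shares were 1.54% and 1.19% at that p and 9.84% and 10.1% not overlapping. The share of these genes above both 10-cell samples was near that of all genes, and the share below both was smaller. ZNF675 had 99.8, 76.9 and 46.7 CPM in the cells against 36.6 and 35.8 CPM. ZNF808 had 98.6, 101 and 115 CPM against 72.2 and 69.3 CPM. The lower gene, ZNF384, had 38.8, 34.5 and 31.6 CPM against 57.4 and 62.6 CPM. The list's medians were 0.26, 0.05 and 0.21 in the 3 cells, and 0.155 to 0.267 as single libraries were left out. The KAP1 and HUSH repressors that many zinc finger proteins recruit had a median of -0.07 over 12 genes, with no gene at an unadjusted p under 0.05.

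Antisense and intergenic RNAs had a median of 0.25 over 90 genes at 10 CPM or more, and at an unadjusted p under 0.05 there were 3 higher and 0 lower, where all genes had 1.54% and 1.19%. The 484 tested below 10 CPM had a median of -0.10 and 45 at that p, all lower. Every cell lay above both 10-cell samples for 17 and below both for 99. Of all genes in that range, 6.7% were lower at that p, 4.22% lay above both and 19.6% below both. Among all genes tested, 454 passed the count minimum only in the 10-cell samples and 61 only in the cells. The direction below 10 CPM is therefore not a balance and is not a result about this list. LINC00852 had 20.2, 17.8 and 11.4 CPM in the cells against 6.03 and 4.47 CPM, and SVIL-AS1 had 40, 48.3 and 49.9 CPM against 25.5 and 28.8 CPM. The 9 long nuclear RNAs had a median of 0.04, with NEAT1, the scaffold of paraspeckles, at 2570, 3530 and 3940 CPM against 3060 and 3560 CPM.

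**Figure D5:**
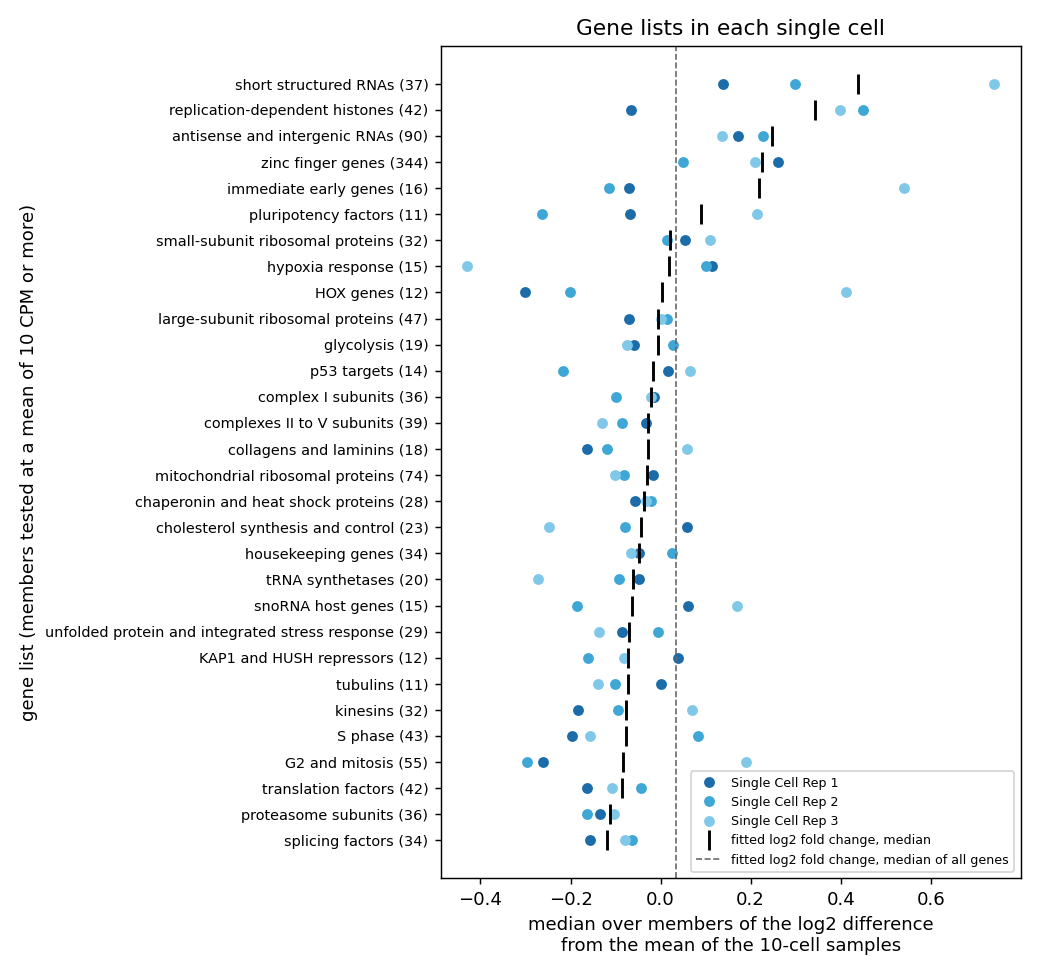
Median difference of each gene list from the mean of the 10-cell samples in each single cell (points, log2), beside the fitted median over the 3 cells (bar) and that of all genes (dashed line at 0.03). Short structured RNAs (0.44) and histones (0.34) have the highest fitted medians, and splicing factors (-0.12) and proteasome subunits (-0.11) the lowest of the lists plotted, those with at least 10 members at this level.

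Cell cycle genes varied from cell to cell. The 55 genes of G2 and mitosis had medians of -0.26, -0.30 and 0.19 in the 3 cells, and the fitted median of -0.08 turned to 0.02 when Single Cell Rep 2 was left out and was -0.265 without Rep 3. The 43 S-phase genes had medians of -0.20, 0.08 and -0.16 and a fitted median of -0.08. At an unadjusted p under 0.05 there were 2 S-phase genes, NASP and the polymerase subunit POLA1 (273, 214 and 219 CPM against 319 and 291 CPM), and 1 mitotic gene, FAM64A (20.4, 33.3 and 32.6 CPM against 60.4 and 44.8 CPM), all lower. Over all genes at 10 CPM or more, 1.19% were lower and 1.54% higher at that p. The 32 kinesins, motor proteins of the spindle and of transport, had a median of -0.08, with KIFC1 at 123, 144 and 127 CPM against 181 and 163 CPM and KIF7 at 67.7, 78.7 and 66.6 CPM against 41.5 and 51.5 CPM. The 11 tubulins had a median of -0.07, and TUBB4A, at 405, 199 and 415 CPM against 183 and 172 CPM, lay above both 10-cell samples in every cell.

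Lists of widely expressed genes had medians near 0, with members on both sides. Large-subunit ribosomal proteins had a median of -0.01 over 47 genes, 42 with an interval inside 2-fold, and the median was 0.01 under DESeq2's scaling, which shifts all genes alike. Small-subunit ribosomal proteins had a median of 0.02 over 32 genes, 29 with such an interval. RPS2 was the only gene of either list at an unadjusted p under 0.05, with 564, 535 and 455 CPM in the cells against 400 and 403 CPM. Housekeeping genes had a median of -0.05 over 34 genes, 29 with an interval inside 2-fold, and NONO, an RNA-binding protein, had 937, 1000 and 908 CPM against 1130 and 1160 CPM. The medians were -0.03 for 74 mitochondrial ribosomal proteins, -0.02 for 36 subunits of respiratory complex I, -0.03 for 39 of complexes II to V and -0.01 for 19 glycolytic genes. The interval lay inside 2-fold for 39, 17, 30 and 16 of these in the same order. Every cell lay above both 10-cell samples for 5 mitochondrial ribosomal proteins and below both for 16, where all genes at this level had 9.84% and 10.1%. MRPL2, at 16.8, 19.1 and 19.3 CPM against 39.1 and 35.9 CPM, lay lower in every cell.

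Lists for making and turning over RNA and protein had medians a little below 0. Splicing factors had a median of -0.12 over 34 genes with 10 above 0 and 24 below. Proteasome subunits had -0.11 over 36 genes with 11 above and 25 below. PSMB1, a subunit of its core, had 91, 63.7 and 91.8 CPM in the cells against 120 and 124 CPM. Translation factors had -0.085 over 42 genes. EIF4E, which binds the mRNA cap, had 52.7, 59.3 and 80.4 CPM against 92.2 and 99.8 CPM. The 20 tRNA synthetases had -0.06, the 28 chaperonins and heat shock proteins -0.04 and the 29 genes of unfolded-protein and integrated stress pathways -0.07. In the last 3 lists, FARSA, STIP1, HSP90B1, PDIA6 and SDF2L1 were lower and WARS and TRIB3 higher at an unadjusted p under 0.05. Of all genes at this level, 1.19% were lower and 1.54% higher at that p. Cholesterol genes had a median of -0.04 over 23, with SCAP, the escort of the sterol-sensing factors, at 116, 126 and 127 CPM against 77.4 and 84.4 CPM. Every cell lay below both 10-cell samples for 10 splicing factors, 10 proteasome subunits and 10 translation factors. It lay above both for 2, 1 and 0 in the same order. Those shares were 10.1% below and 9.84% above over all genes at this level.

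Signalling and identity lists were short and uneven between cells. The 16 immediate early genes, which answer growth factors and stress, had a fitted median of 0.22 and medians of -0.07, -0.115 and 0.54 in the 3 cells. JUN had 32.5, 41 and 38.8 CPM in the cells against 16.8 and 17 CPM, a log2 fold change of 1.15. The 11 pluripotency factors had a median of 0.09. POU5F1 had 419, 264 and 791 CPM in the cells against 478 and 412 CPM, and SOX2 had 745, 731 and 1360 CPM against 1000 and 769 CPM, so both were highest in Single Cell Rep 3. OAS3, an interferon-induced sensor of double-stranded RNA, had 26.4, 56 and 20.1 CPM against 15.6 and 10.9 CPM in a list of 7 with a median of 0.32. The 12 interferon genes tested below 10 CPM had a median of -0.66. Every cell lay above both 10-cell samples for 1 of the 12 and below both for 5, where all genes in that range had 4.22% and 19.6%. The medians were -0.02 for 14 p53 targets, 0.02 for 15 hypoxia genes, 0.00 for 12 HOX genes and -0.03 for 18 collagens and laminins.

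Below 10 CPM, 5193 genes were tested. At an unadjusted p under 0.05, 15 (0.289%) were higher in the cells and 348 (6.7%) lower. Every cell lay above both 10-cell samples for 219 genes (4.22%) and below both for 1016 (19.6%). The low side held genes that were seen in the 10-cell samples and in no cell: 262 of the 348 had 0 counts in all 3 cells, and 10 of the 15 had 0 in both 10-cell samples. A gene with counts in 1 group alone enters the test through that group, and 454 genes passed the count minimum only in the 10-cell samples against 61 only in the single cells, so these counts are not a balance of directions. With no filter they were 37 higher and 186 lower, with a filter of 10 CPM in 2 libraries 4 and 4, and without 10 Cell Rep 1 or Rep 2 they were 3 and 8 or 0 and 7. The spread was wide, with a median SD of 1.23 to 1.37 over the pairs of cells and 0.48 for the pair of 10-cell samples, and 0% of intervals lay within 2-fold.

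Among the weak genes seen more in the cells, MEG3, an imprinted long noncoding RNA, had 2.18, 8.1 and 8.99 CPM in the cells and 0.322 and 0.0203 CPM in the 10-cell samples. RARRES3, a retinoid-responsive phospholipase, had 12.5, 5.5 and 4.01 CPM against 1.2 and 0.752 CPM, and LOC100130691 had 5.15, 1.31 and 14 CPM against 0.667 and 0.284 CPM. HRAT56, with 0.154, 0.683 and 2.15 CPM in the cells, and RGL4, with 0.79, 0.0195 and 1.88 CPM, were at 0 in both 10-cell samples. Against the floor of 3 counts over both samples, which is 0.0324 CPM, the mean of the cells was at least 30.8-fold higher for HRAT56 and 27.7-fold higher for RGL4. Single Cell Rep 2 lay under that floor for RGL4, so the bound rests on the other cells. Both bounds cover counting error only.

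Among the weak genes seen less, TMEM81 had 0.0578, 0.039 and 0.038 CPM in the cells and 6.99 and 2.42 CPM in the 10-cell samples. ZNHIT2, a zinc finger protein that works with chaperones, had 0.0771, 0.078 and 0 CPM against 6.97 and 5.73 CPM. With PI15, these were the genes that DESeq2 called lower. KIFC3, a kinesin, had 0 counts in all 3 cells against 1.95 and 3.74 CPM, and NEB, the gene of the muscle protein nebulin, had 0 counts in all 3 cells against 2.64 and 2.48 CPM. Against the floor of 3 counts over the 3 cells these were at least 148-fold and 133-fold lower.

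The differences at 10 CPM or more were spread over the genome. By chromosome, the median difference of mean log2 CPM ran from -0.105 on chromosome 5 (450 genes) to 0.07 on chromosome 16 (443 genes). The chromosome 5 median was below 0 in each cell, at -0.09, -0.10 and -0.06, and the chromosome 16 median above 0, at 0.175, 0.07 and 0.04. Chromosome 19, which holds many zinc finger genes, had 0.07, and 0.04 without them. In 5 groups of genes by exon length, the medians lay between -0.04 and 0.01.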

How the data were processed

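RNA was sequenced from sorted HAP1 cells. The authors deposited raw counts per gene, 1 file per library, made on hg38 with FastQC 0.11.9, Trim Galore 0.6.7, HISAT2 2.2.1, SAMtools 1.16.1 and featureCounts of Subread 2.0.6. The submitters' processing notes also name DESeq2 1.44.0. Per the file headers, reads rather than pairs were counted, by strand, and multi-mapping reads were left out. The annotation release is not given in the sources used here, and the files list no mitochondrial gene models.

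The deposited counts of the 5 libraries were fitted with edgeR 4.0.16 in R 4.3.3 (TMM scaling, filterByExpr with a minimum of 10 counts, quasi-likelihood test, Benjamini-Hochberg threshold 0.05) over 15098 of 26485 gene models. Log2 CPM used a prior count of 2. Alternatives were DESeq2 1.42.0, limma-trend (limma 3.58.1), other scalings, filters and prior counts, thinning to the smallest total, a replicate block, a split by the 10-cell mean, and leaving out each library. The script was tested on simulated data. Named genes were those of smallest unadjusted p in each direction with every cell beyond both 10-cell samples (10 at 10 CPM or more, 5 below), those of highest level, the RT-qPCR targets, BCR, ABL1, and list members of smallest p or highest level. Not every list member is printed, and 1 gene of smallest p below 10 CPM is not reported here. Genes of widest range, genes missing from a cell, and the further list members were chosen after values were seen. Members and lists were chosen with earlier results of these data known. Gene classes came from RefSeq (GRCh38.p14), matched by symbol for 9260 of 9905 genes, and stem-loops from GENCODE release 29. The libraries of 100 and 1000 cells were not used in any test.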

Additional observations from a re-analysis of the deposited data

How the results depend on the processing

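With 3 against 2 libraries, edgeR made 0 adjusted calls under every scaling, filter and thinning tried and without any 1 library (the lone 10-cell sample is then assumed to vary like the cells). The exceptions to 0 calls were DESeq2, with 1 higher at 10 CPM or more (TKTL1) and 3 lower below it (TMEM81, ZNHIT2 and PI15), and the replicate block, with 4 lower at 10 CPM or more (LIN28A, UACA, TOP2A and EGR1) and 1 lower below it (PI15). The cause was not tested. No label says what a shared replicate number stands for, and Single Cell Rep 3 has no partner in the block. Deviations of same-numbered samples correlated at -0.01 and 0.03. With 2 10-cell samples the deviations mirror each other, so samples of unlike number gave 0.01 and -0.03. Whether a number marks a batch cannot be told from these values. Unadjusted calls, added after seeing the data, went from 634 to 39 or 26 without a 10-cell library (Rep 1 or Rep 2) and to 1139 to 1370 without a cell. The median SD of single cells at 10 CPM or more was 0.305 to 0.333 without 1 cell, by construction a pair, and 0.402 and 0.404 under thinning and a prior count of 0.5. The median log2 fold change of genes at 10 CPM or more was 0.03 with TMM, 0.05 with DESeq2's size factors, 0.02 with library totals (added after seeing the data) and -0.02 in limma-trend. Of 2222 values of 172 named genes under alternatives, 142 had the opposite sign (66 genes). At 10 to 30 CPM the median width to each side of the 95% interval, 1.28 in log2 units, was wider than 2-fold.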
